A study of Mus musculus with 18 samples.

Results

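The comparison asks what interleukin-10 (IL-10) and transforming growth factor beta (TGF-beta) change in wild-type dendritic cells that also receive lipopolysaccharide (LPS). It rests on 6 of the 18 RNA sequencing libraries of the series, those whose titles mark WT cells given LPS, 3 with IL-10 and TGF-beta added and 3 without. All cells were bone marrow-derived dendritic cells (BMDC) of C57BL/6 mice, grown in 20 ng/ml GM-CSF, treated for 8 hours and then sorted alive for high CD11c. 6 further WT libraries, 3 given IL-10 and TGF-beta without LPS and 3 left untreated in medium, show what the cytokines do without LPS. The other 6 libraries come from Bat3 fl/fl cells with Cre driven by CD11c and were not compared here. The doses of LPS and of the cytokines, and whether the cytokines went in before or with LPS, are not given in the sources used here. The labels speak of 5 biological replicates where the files hold 3 libraries a group, and do not say whether these came from separate mice or cultures, so the p-values measure only the spread among these libraries, which may be technical.

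LPS, a component of the outer membrane of Gram-negative bacteria, is sensed by TLR4, which signals through MyD88 to NF-kB and through TRIF to interferon regulatory factors and type I interferon. The dendritic cell responds by secreting inflammatory cytokines, displaying MHC class II and costimulatory molecules, and gaining CCR7, the chemokine receptor that leads it to lymph nodes. IL-10 signals through STAT3 and TGF-beta through SMAD2 and SMAD3. Both are known to restrain this maturation, and cells treated with them are used as tolerising dendritic cells.

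The files held between 10588650 and 12068759 expected counts in the libraries with LPS and the cytokines, and between 8940446 and 9407500 in those with LPS alone. Levels are given below as CPM, counts relative to library size, with sizes scaled over the 12 WT libraries. Itgax, which encodes CD11c and was used for sorting as protein, had 267, 295 and 263 CPM with LPS and cytokines, against 638, 636 and 627 CPM with LPS alone. The groups did not overlap, and Itgax fell 2.33-fold (log2 fold change -1.22 ± 0.09, SE, adjusted p = 1.92e-06). The shared GM-CSF receptor chain Csf2rb was near 2990 CPM with LPS and cytokines and 2852 CPM with LPS alone, while Flt3, a receptor of conventional dendritic cells, was at or below 0.451 CPM in all 12 libraries. Zbtb46, a transcription factor of the dendritic lineage, had 1.56, 1.88 and 0.519 CPM with LPS and cytokines, against 17.7, 18.5 and 20.9 CPM with LPS alone. In such bulk RNA, fewer cells of a type and less RNA per cell cannot be told apart. The precursor ribosomal RNA gene Rn45s took 6.92 to 7.63% of the counts with LPS and cytokines and 4.48 to 7.67% with LPS alone. The pairs of libraries given LPS alone differed more than those with cytokines, by a chi-square per degree of freedom of 11.6 to 22.8, against 5.30 to 8.18 with LPS and cytokines. Among the libraries without LPS, replicate 1 of the cytokine group stood apart at several LPS-responsive genes and replicate 3 in medium at maturation genes, and differences without them are given for several genes below.

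The count filter kept 11154 of 23420 genes, and 4615 of those kept (41.4%) were called at an adjusted p under 0.05 with edgeR's quasi-likelihood test. 2199 genes (19.7%) rose and 2416 (21.7%) fell when the cytokines were added to LPS. The median log2 fold change over all tested genes was -0.0056. Of these, 708 rose and 859 fell at least 2-fold (6.35% and 7.7%). At 6006 of the tested genes (53.8%) the libraries of the groups did not overlap, so a group that does not overlap is common in this comparison.

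Where log2(CPM + 1), averaged over the 6 libraries, was 2 or more, the 10 largest falls included genes of the mature dendritic cell. Il12b, the subunit shared by IL-12 and IL-23, had 1.38, 0.397 and 0.415 CPM with LPS and cytokines, against 427, 391 and 346 CPM with LPS alone. It fell 514-fold (log2 -9.004 ± 0.25, SE, adjusted p = 7.10e-09). Aldh1a2, the enzyme that makes retinoic acid from retinal, had 0.921, 1.09 and 0.415 CPM with the cytokines, against 237, 397 and 308 CPM with LPS alone, a 383-fold fall (adjusted p = 8.33e-08). Both chemokine ligands of CCR4 followed. Ccl22 had 15.9, 11.7 and 4.47 CPM with LPS and cytokines, against 3758, 3587 and 3624 CPM with LPS alone, and fell 342-fold. Ccl17 had 13.9, 15.4 and 9.04 CPM with LPS and cytokines, against 1753, 2110 and 1806 CPM with LPS alone, and fell 149-fold. In all 4 genes every library with cytokines lay far below every library with LPS alone. The other genes among the 10 largest falls were Fscn1 (fascin, which bundles the actin of dendrites), Wnk2, Nudt17, Emr4, Fabp4 and Lta, which fell between 40.8-fold and 79.2-fold, with LPS alone at 8.56 to 63.4 CPM. Fitted values of genes with few counts in 1 group depend on a single library. Without replicate 1 of LPS with cytokines the log2 fold change of Il12b was -9.86 and that of Fabp4 -6.50, and without replicate 2 that of Fscn1 was -6.93. Other genes near 0 with the cytokines fell as steeply but lay under that limit. The 3 of them with the mean CPM itself at 2 or more on the log2 scale are named after their values were seen. Asgr2, a subunit of the asialoglycoprotein receptor, had 0 counts with LPS and cytokines, against 377 counts with LPS alone, and was at least 147-fold lower, taking 3 counts over the group as the floor. Mucl1 had 0 counts with LPS and cytokines, against 309 with LPS alone, and was at least 121-fold lower. Faah, which degrades the lipid mediator anandamide, had 6 counts with LPS and cytokines, against 287 with LPS alone.

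The 10 largest rises under the same limit included genes of matrix and acute-phase secretion. Of lipid handling genes, Apoe and Angptl4 were among these rises, while Fabp4, a fatty acid-binding protein, was among the falls above. Spp1, which encodes the secreted glycoprotein osteopontin, had 18651, 18010 and 18248 CPM with LPS and cytokines, against 661, 1048 and 900.2 CPM with LPS alone. It rose 20.8-fold (log2 4.38 ± 0.18, SE, adjusted p = 3.81e-08). Apoe, the lipoprotein ligand that carries cholesterol out of macrophages, had 555, 307 and 456 CPM, against 8.42, 12.7 and 5.74 CPM with LPS alone, a 48.6-fold rise. Angptl4, an inhibitor of lipoprotein lipase, had 38.02, 40.9 and 37.9 CPM with LPS and cytokines, against 1.36, 0.475 and 0.788 CPM with LPS alone. All 3 genes were several times higher in each library with cytokines than in any with LPS alone. Etv1 (an ETS transcription factor), Cited1 (a transcriptional coregulator), Col4a1 (a collagen of basement membranes), Slc36a2 (an amino acid transporter), Entpd3 (an enzyme that degrades extracellular nucleotides) and Pde1c (a phosphodiesterase of cyclic nucleotides) rose between 18.7-fold and 62.9-fold, to levels between 12.6 and 35.2 CPM. The log2 fold change of Etv1 was 5.98, and 7.75 without replicate 1 of LPS alone. Saa1, a serum amyloid A acute-phase protein, had 1326 counts over the 3 libraries with LPS and cytokines, against 1 count over those with LPS alone. The ratio of these counts, scaled to library size, was 1132 with a 95% interval from 203 to 44727 that covers counting error only. Its fitted log2 fold change was 9.70, and 11.7 without replicate 2 of LPS alone. Saa1 and its near-identical neighbour Saa2 may share reads, so the split between them is uncertain. Other genes near 0 with LPS alone rose as steeply but lay under the limit, and the 4 with the mean CPM itself at 2 or more on the log2 scale are likewise named after their values were seen. Gpc3, which encodes the cell-surface proteoglycan glypican 3, had 445 counts with LPS and cytokines, against 1 with LPS alone, and Ambp, which encodes alpha-1-microglobulin, had 327 counts, against 1 with LPS alone. The ratios of these counts were 380 (95% interval 67.8 to 15032) and 279 (49.7 to 11055). The organic anion transporter Slco2b1 had 300 counts with LPS and cytokines and 10 with LPS alone, and the mast cell protease Mcpt1 had 374 and 4 counts in those groups.

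**Figure D1:**
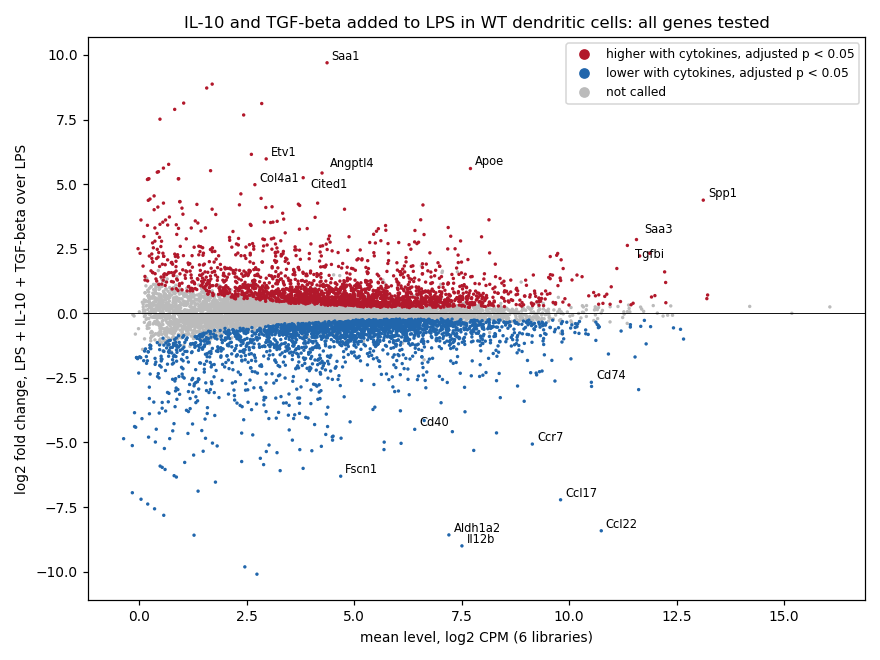
Log2 fold change (LPS with IL-10 and TGF-beta over LPS alone, vertical axis) against the mean level over the 6 libraries (log2 CPM, horizontal axis) for the 11154 tested genes, each a point, red where higher and blue where lower at an adjusted p under 0.05. Labelled genes include Il12b at -9.004, Ccl22 at -8.42 and Ccl17 at -7.22, and above 0 Saa1 at 9.70, Apoe at 5.60 and Spp1 at 4.38.

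Inflammatory cytokines and chemokines fell as a group. Of 30 tested members of that list, 22 fell and 1 rose, where 21.7% and 19.7% of all tested genes did, and the median log2 fold change was -1.28. Il12a, the second subunit of IL-12, had 2.12, 1.98 and 1.56 CPM with LPS and cytokines, against 16.8, 28.6 and 21.5 CPM with LPS alone, and fell 11.8-fold (adjusted p = 9.90e-07). Il6 had 30.01, 27.6 and 19.01 CPM with LPS and cytokines, against 127, 102 and 97.3 CPM with LPS alone, and fell 4.29-fold (log2 -2.10 ± 0.16, SE, adjusted p = 4.72e-06). Tnf had 34.1, 24.3 and 31.2 CPM with LPS and cytokines, against 89.2, 91.7 and 82.96 CPM with LPS alone, and fell 2.98-fold (log2 -1.57 ± 0.12, SE). Neither gene's groups overlapped, and the libraries of cells in medium (47.7, 45.1 and 38.1 CPM) lay between the groups at Tnf.

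Il1b encodes IL-1 beta. It had 1550, 1339 and 1406 CPM with LPS and cytokines, against 2383, 1892 and 1978 CPM with LPS alone, a 1.47-fold fall (log2 -0.56 ± 0.12, SE, adjusted p = 0.0028). Il23a, the specific subunit of IL-23, had 1.93, 0.892 and 2.08 CPM with LPS and cytokines, against 5.80, 2.73 and 3.60 CPM with LPS alone. Its groups did not overlap but lay close together, and the call (log2 -1.32 ± 0.38, SE, adjusted p = 0.0157) was lost without replicate 2 of LPS with cytokines (adjusted p = 0.069) and without replicate 1 of LPS alone (adjusted p = 0.066). Il15, a cytokine that sustains natural killer and memory CD8 T cells, had 2.12, 1.69 and 1.87 CPM with LPS and cytokines, against 43.3, 66.1 and 52.3 CPM with LPS alone, a 28.6-fold fall. Among the chemokines, Ccl5, which draws T cells, averaged 774 ± 206 CPM with LPS and cytokines and 5929 ± 1231 CPM with LPS alone (SD, n = 3 each). Ccl2, which draws monocytes, averaged 42.5 ± 11.4 CPM with LPS and cytokines and 228 ± 102 CPM with LPS alone (SD, n = 3 each). Both fell. The neutrophil-attracting chemokines Cxcl2 and Cxcl3 did not pass the test, with log2 fold changes of -0.14 and 0.37, nor did Osm at -0.047. Ccl12, a monocyte chemokine at 4.04 ± 0.808 CPM with LPS and cytokines and 1.37 ± 0.589 CPM with LPS alone (SD, n = 3 each), was the member that rose.

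IL-1 family genes split by role. 11 of 20 tested members fell and 7 rose, with a median of -0.26. The ligands Il1a, Il1b, Il33, Il1f6 and Il1f9 and the antagonist Il1rn fell, as did Il18bp, which neutralises IL-18, and the inflammasome genes Nlrp3, Casp1, Casp4 and Gsdmd. The 7 that rose were all receptor genes, Il1r1, Il1r2 (a decoy), Il1rap, Il18r1, Il18rap, Il1rl1 and Il1rl2. Il1r1, the signalling receptor of IL-1, had 13.5, 8.92 and 10.2 CPM with LPS and cytokines, against 1.59, 2.61 and 1.58 CPM with LPS alone, a 5.58-fold rise. Il1rap, its coreceptor, averaged 71.00 ± 4.19 CPM with LPS and cytokines and 34.2 ± 5.01 CPM with LPS alone (SD, n = 3 each). Il33, an alarmin, had 0.736, 0.992 and 1.04 CPM with LPS and cytokines, against 8.30, 7.25 and 8.56 CPM with LPS alone. Il1rn had 2694, 2154 and 2693 CPM with LPS and cytokines, against 2718, 3975 and 3428 CPM with LPS alone. Its fall (log2 -0.44 ± 0.15, SE, adjusted p = 0.0363) was small, and 5 of the 6 fits that leave out 1 library did not call it.

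Costimulatory molecules and T-cell ligands of the TNF family fell, with exceptions. 9 of 15 tested members fell, 3 rose and the median was -1.50. Cd40, the receptor through which helper T cells license dendritic cells, had 8.93, 6.25 and 8.21 CPM with LPS and cytokines, against 186, 183 and 153 CPM with LPS alone, and fell 22.5-fold (log2 -4.49 ± 0.14, SE, adjusted p = 7.10e-09). Cd86, a ligand of CD28, had 39.8, 22.6 and 20.4 CPM with LPS and cytokines, against 193, 128 and 166 CPM with LPS alone, and fell 5.93-fold (adjusted p = 2.04e-04). Cd80, the other ligand of CD28, had 9.21, 7.64 and 6.23 CPM with LPS and cytokines, against 38.9, 28.2 and 32.9 CPM with LPS alone, a 4.36-fold fall. No library of the cytokine group reached the lowest library of LPS alone in these 3 genes.

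Tnfsf15, which encodes the T-cell costimulator TL1A, averaged 4.38 ± 1.34 CPM with LPS and cytokines and 142 ± 13.6 CPM with LPS alone (SD, n = 3 each). Cd70, the ligand of CD27, had no count in any library with LPS and cytokines, against 132 counts with LPS alone, and was therefore at least 51.6-fold lower, taking 3 counts over the group as the floor. Tnfsf14, which encodes LIGHT, went the other way. It had 53.8, 57.8 and 51.7 CPM with LPS and cytokines, against 3.53, 2.02 and 4.28 CPM with LPS alone, and rose 16.3-fold (log2 4.03 ± 0.19, SE, adjusted p = 6.90e-08). Tnfsf9 (4-1BB ligand) and the lipid-presenting Cd1d1 rose by 0.63 and 0.70 on the log2 scale, and Icam1 and Cd48 did not pass the test.

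Genes of mature and migratory dendritic cells fell. 27 of 29 tested members fell, 1 rose (Il7r, log2 0.57) and the median was -2.24. Summed over the list, the level was 1220 to 1434 CPM with LPS and cytokines and 10226 to 10612 CPM with LPS alone. Ccr7 had 53.8, 34.01 and 18.3 CPM with LPS and cytokines, against 1277, 1092 and 1150 CPM with LPS alone, and fell 33.4-fold (log2 -5.06 ± 0.38, SE, adjusted p = 4.84e-05). Cd83, a surface marker of mature dendritic cells, had 16.2, 9.72 and 8.93 CPM with LPS and cytokines, against 519, 413 and 443 CPM with LPS alone, and fell 39.6-fold. Stat5a, which relays GM-CSF signals, Cacnb3, a calcium channel subunit, and Il4i1, an amino acid oxidase, also fell (-2.39, -3.90 and -4.63 on the log2 scale). Samsn1 did not pass the test.

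**Figure D2:**
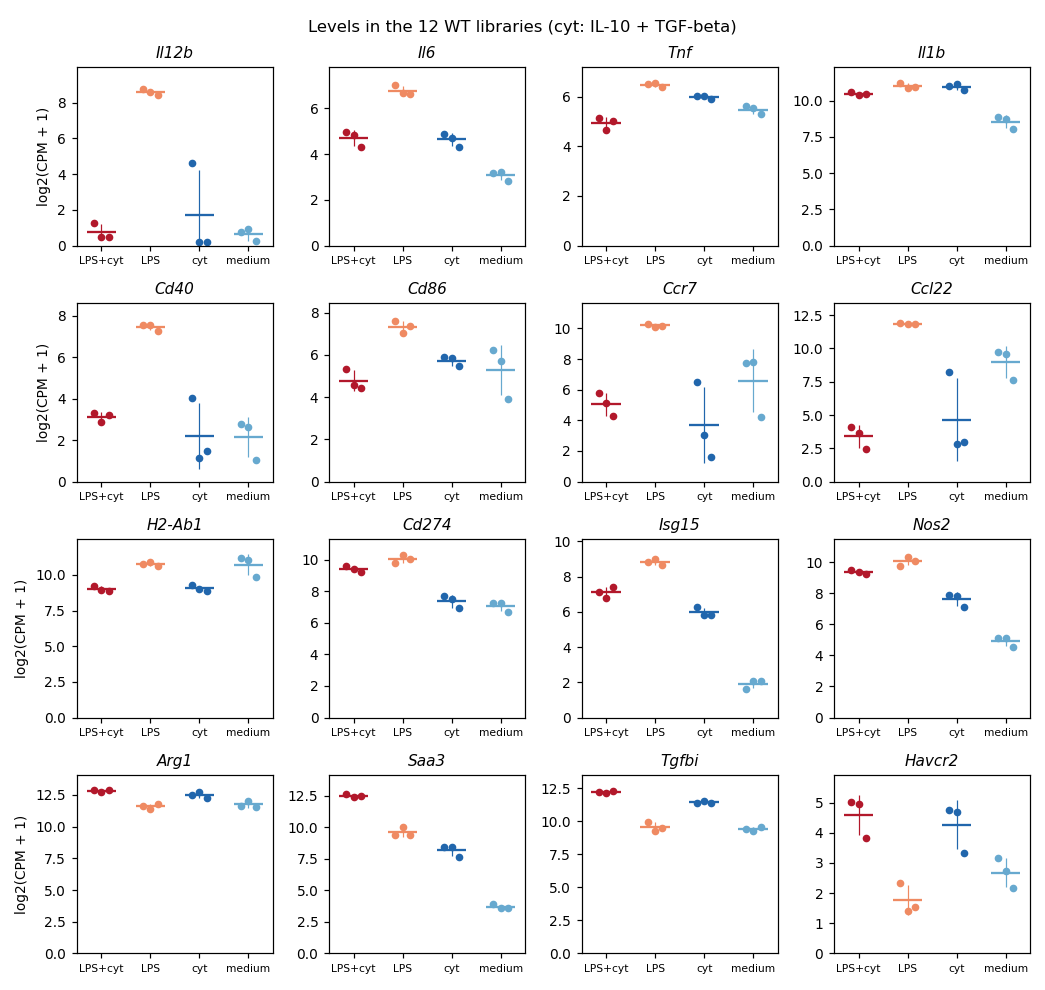
Levels of 16 genes, each panel a gene, as log2(CPM + 1) in the 12 WT libraries, with a point for each library, a horizontal line at the mean and a vertical line of 1 SD (n = 3), for LPS with IL-10 and TGF-beta, LPS, the cytokines alone and medium. Il12b, Cd40, Ccr7 and Ccl22 are low with LPS and cytokines and high with LPS alone, while Arg1, Saa3, Tgfbi and Havcr2 are higher with LPS and cytokines.

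Genes of antigen presentation through MHC class II fell. 13 of 15 tested class II genes fell, with a median of -1.76. Ciita, the master transactivator of class II genes, had 6.90, 5.26 and 4.78 CPM with LPS and cytokines, against 61.9, 38.5 and 58.2 CPM with LPS alone, and fell 9.41-fold (log2 -3.23 ± 0.21, SE, adjusted p = 7.80e-07). H2-Ab1, a class II chain, had 593, 492 and 466 CPM with LPS and cytokines, against 1697, 1906 and 1608 CPM with LPS alone, a 3.40-fold fall. Cd74, the invariant chain that guides class II molecules, had 533, 389.8 and 363 CPM with LPS and cytokines, against 2620, 2920 and 2563 CPM with LPS alone, a 6.37-fold fall. H2-Eb1 and H2-Aa fell 7.04-fold and 4.80-fold, while the peptide exchange subunits H2-DMa and H2-DMb1 fell (-0.57 and -0.68 on the log2 scale). March1, the ubiquitin ligase that removes class II molecules from the surface, had 448, 431 and 398 CPM with LPS and cytokines, against 203, 219 and 232 CPM with LPS alone, and was the member that rose (log2 0.95, adjusted p = 1.48e-05).

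In the class I list 10 of 16 members fell, none rose and the median was -0.50. That is 62.5% called, against 41.4% of all tested genes. Nlrc5, the transactivator of class I genes, had 39.4, 38.3 and 52.5 CPM with LPS and cytokines, against 101, 112 and 90.1 CPM with LPS alone, and fell 2.35-fold. The proteasome activator Psme2 and the immunoproteasome subunit Psmb9 fell 2.14-fold and 1.59-fold. The class I chains H2-K1 and H2-D1 and their partner B2m did not pass the test, with log2 fold changes of 0.056, 0.16 and 0.28.

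Interferon-stimulated genes fell broadly. 37 of 46 tested members fell, 2 rose (Oas2 and Lgals3bp) and the median was -0.93. Their summed level was 12521 to 16709 CPM with LPS and cytokines and 22986 to 30137 CPM with LPS alone. Mx1, an antiviral GTPase, had 67.7, 52.7 and 95.2 CPM with LPS and cytokines, against 398, 389 and 354 CPM with LPS alone, and fell 5.36-fold (log2 -2.42 ± 0.19, SE, adjusted p = 7.41e-06). Isg15, a ubiquitin-like modifier, had 138, 111 and 167 CPM with LPS and cytokines, against 457, 512 and 408 CPM with LPS alone, a 3.35-fold fall. Rsad2, which encodes the antiviral enzyme viperin, had 395, 221 and 557 CPM with LPS and cytokines, against 2076, 3539 and 2627 CPM with LPS alone, a 7.12-fold fall (adjusted p = 7.83e-04). In these genes the groups did not overlap, and replicate 2 was the lowest library with cytokines.

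Samhd1, a restriction factor that depletes nucleotides, fell 2.18-fold. Cxcl10, an interferon-induced chemokine for activated T cells, had 83.9, 47.3 and 95.1 CPM with LPS and cytokines, against 237, 387 and 212 CPM with LPS alone (log2 -1.90 ± 0.33, SE, adjusted p = 0.004). Stat2, which relays type I interferon signals with Irf9, fell (-0.60 on the log2 scale), and Irf9 did not pass the test (-0.12). Among the regulatory factors, 4 of 8 fell and none rose, a share of 50% called against 41.4% of all tested genes. Irf4 had 60.4, 50.2 and 46.9 CPM with LPS and cytokines, against 165, 185 and 183 CPM with LPS alone, a 3.42-fold fall, and Irf8 and Irf5 fell 2.27-fold and 2.25-fold. Irf1 and Irf3 did not pass the test, with log2 fold changes of -0.032 and 0.11.

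The NF-kB pathway list also fell, both in transcription factor subunits and in feedback inhibitors. 20 of 28 members fell, 3 rose and the median was -0.67. Rel, the subunit c-Rel that drives Il12b transcription in mouse macrophages, had 42.99, 42.05 and 42.7 CPM with LPS and cytokines, against 141, 124 and 135 CPM with LPS alone. It fell 3.16-fold (log2 -1.66 ± 0.09, SE, adjusted p = 1.43e-07). Nfkb1, Nfkb2 and Relb fell (-1.06, -0.99 and -0.54 on the log2 scale), and Rela rose by 0.58. Tnip3, which encodes an A20-binding protein, fell 3.23-fold and Bcl2a1d, a survival gene with near-identical copies between which reads may be split, 2.40-fold. Nfkbia, the classical inhibitor, did not pass the test (-0.18).

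Promoters of 2 of the interferon-stimulated genes that fell, of Il6 and of Saa3, which rose, are printed because interferon and NF-kB elements are known to act close to such start sites. Each sequence runs from 250 bases before to 50 bases after a start site of the gene, read 5′ to 3′ on the gene's strand, from RefSeq on GRCm38.p6. For Saa3 the start site used lies inside the full span of the gene (chr7:46711998-46719615), not at its outer end. Capitals mark matches, on either strand, of GAAANNGAA (the core of an interferon-stimulated response element), GGGANTTTC (NF-kB) and CAGACA (SMAD), and a STAT motif, TTCNNNGAA, matched in none of the 4.
Isg15 (chr4:156200769-156201068, minus strand): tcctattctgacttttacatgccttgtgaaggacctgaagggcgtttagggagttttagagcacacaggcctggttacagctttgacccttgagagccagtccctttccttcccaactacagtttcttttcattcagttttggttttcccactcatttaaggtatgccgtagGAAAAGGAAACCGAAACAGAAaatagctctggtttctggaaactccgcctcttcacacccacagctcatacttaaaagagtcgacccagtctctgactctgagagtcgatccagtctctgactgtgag
Rsad2 (chr12:26456403-26456702, minus strand): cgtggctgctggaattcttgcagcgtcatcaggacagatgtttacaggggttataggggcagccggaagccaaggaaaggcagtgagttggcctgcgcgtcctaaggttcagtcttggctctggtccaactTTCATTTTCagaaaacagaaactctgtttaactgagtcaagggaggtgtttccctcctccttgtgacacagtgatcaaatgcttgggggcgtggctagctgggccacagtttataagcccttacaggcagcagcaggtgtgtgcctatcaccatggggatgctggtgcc
Il6 (chr5:30012864-30013163, plus strand): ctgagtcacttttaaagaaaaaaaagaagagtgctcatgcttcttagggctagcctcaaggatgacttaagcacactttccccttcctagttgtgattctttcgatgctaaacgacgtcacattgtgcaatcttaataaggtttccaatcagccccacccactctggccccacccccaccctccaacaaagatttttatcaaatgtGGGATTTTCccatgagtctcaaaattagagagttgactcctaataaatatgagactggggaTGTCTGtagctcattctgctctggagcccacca
Saa3 (chr7:46715627-46715926, minus strand): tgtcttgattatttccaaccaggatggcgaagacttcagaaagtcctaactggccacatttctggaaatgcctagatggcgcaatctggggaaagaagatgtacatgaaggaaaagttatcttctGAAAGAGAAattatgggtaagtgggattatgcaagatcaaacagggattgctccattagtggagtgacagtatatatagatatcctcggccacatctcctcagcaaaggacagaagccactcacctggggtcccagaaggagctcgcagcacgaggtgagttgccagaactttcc
Isg15 holds 3 overlapping matches of the response element core, the first starting 78 bases before the start site, and Rsad2 holds 1 that starts 119 bases before it. Il6 holds an NF-kB match starting 44 bases before its start site and a SMAD match after it. Saa3 also holds a response element core, 125 bases before its start site, and Saa3 rose. The printed promoters are examples from a larger set searched the same way. Oasl1, an interferon-stimulated gene that fell, holds no response element core and only a SMAD match, 214 bases before its start site. Cd274, which fell, holds a response element core and a SMAD match, in a window that also lies inside the full span of the gene. Il12b and Il1b, which also fell, hold no match of any of these motifs.

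Over all called genes found in the promoter table, the response element core was in 6.89% of the promoters of genes that rose and in 9.81% of those of genes that fell, with 7.44% of promoters of all tested genes and 8.56% of all promoters of that length in the table. The NF-kB motif was in 0.965% of promoters of genes that rose and in 1.68% of those that fell, with 1.15% among tested genes and 1.11% among all. The STAT motif was in 6.61%, 6.88%, 6.94% and 8.30% of promoters of genes that rose, genes that fell, tested genes and all genes, and the SMAD motif in 16.3%, 15.3%, 15.6% and 21.0%. Among genes that changed at least 2-fold, the shares for genes that rose and genes that fell were 8.87% and 10.6% for the response element core, 1.45% and 1.79% for NF-kB, 5.67% and 6.94% for STAT and 18.8% and 17.1% for SMAD, so that genes that rose lay above all tested genes for the response element core and NF-kB at this limit and below them without it. The shares cover 1644 genes that rose and 1800 that fell, and 509 and 625 at the 2-fold limit. They are shares of promoters, of which a gene can have several, and describe letters in a window, not bound sites. NF-kB matches were few, in 21 promoters of genes that rose and 39 of genes that fell, and 10 and 15 at the 2-fold limit.

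Genes downstream of the added cytokines moved in both directions. Of 30 tested TGF-beta and SMAD target genes, 14 rose, 8 fell and the median was 0.38. Tgfbi, a secreted matrix protein named for its induction by TGF-beta, had 4868, 4594 and 5104 CPM with LPS and cytokines, against 1001, 616 and 719.8 CPM with LPS alone, and rose 6.17-fold (log2 2.63 ± 0.17, SE, adjusted p = 6.60e-07). Id3, an inhibitor of helix-loop-helix transcription factors, had 30.3, 26.8 and 27.9 CPM with LPS and cytokines, against 1.93, 3.56 and 3.15 CPM with LPS alone, a 9.70-fold rise. Pmepa1, a feedback inhibitor of TGF-beta signalling, had 13.99, 16.3 and 15.6 CPM with LPS and cytokines, against 7.28, 4.04 and 4.05 CPM with LPS alone, a 2.94-fold rise. The groups stood clear of each other in these 3 genes.

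Smad7, the inhibitory SMAD, had 10.03, 9.02 and 7.48 CPM with LPS and cytokines, against 3.30, 5.23 and 3.71 CPM with LPS alone, and rose 2.15-fold (adjusted p = 0.0023). Skil, the repressor SnoN, had 166, 155 and 157 CPM with LPS and cytokines, against 224, 185 and 192 CPM with LPS alone, and fell (log2 -0.34, adjusted p = 0.0127), a call that was lost without replicate 2 of LPS with cytokines (adjusted p = 0.066). Thbs1, thrombospondin 1, which activates latent TGF-beta, averaged 1510 ± 153 CPM with LPS and cytokines and 4826 ± 705 CPM with LPS alone (SD, n = 3 each) and fell 3.23-fold. Tgm2, transglutaminase 2, rose by 1.73 on the log2 scale to 3659 CPM with LPS and cytokines, against 1090 CPM with LPS alone.

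Of 25 tested IL-10 and STAT3 target genes, 7 rose and 9 fell, and the median was -0.032. That is 64% called, against 41.4% of all tested genes. Socs3, the feedback inhibitor induced by STAT3, had 780.3, 696 and 728 CPM with LPS and cytokines, against 483, 792 and 563 CPM with LPS alone. The groups overlapped and the difference did not pass the test (log2 0.25 ± 0.16, SE, adjusted p = 0.245). Replicate 2 of LPS alone was the highest of the 6 libraries, and without it Socs3 rose (log2 0.48, adjusted p = 0.0014). Bcl3, an IkB family member induced by IL-10, had 22.00, 28.2 and 25.3 CPM with LPS and cytokines, against 8.76, 19.5 and 11.3 CPM with LPS alone (log2 0.92 ± 0.25, SE, adjusted p = 0.0156). Bcl3 was not called without replicate 2 of LPS with cytokines (adjusted p = 0.052) or without replicate 3 of LPS alone (adjusted p = 0.059). Arg1, arginase 1, had 7560, 6731 and 7536 CPM with LPS and cytokines, against 3125, 2729 and 3602 CPM with LPS alone, and rose 2.28-fold (adjusted p = 2.95e-05). Etv3, a repressor induced by IL-10 in mouse macrophages, fell 3.35-fold, and Il21r, the receptor of IL-21, fell 2.05-fold.

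In the receptor and signalling list 4 of 21 tested members rose and 9 fell, where 19.7% and 21.7% of all tested genes did. The median log2 fold change of the list was -0.00012. Il10ra, the ligand-binding chain of the IL-10 receptor, had 189, 170.1 and 181 CPM with LPS and cytokines, against 299, 297 and 275 CPM with LPS alone, and fell 1.63-fold (adjusted p = 7.10e-05). Tgfbr2 and Tgfbr1, the signalling receptors of TGF-beta, rose. Tgfbr2 had 140.02, 149 and 151 CPM with LPS and cytokines, against 80.98, 82.2 and 75.9 CPM with LPS alone, a 1.82-fold rise. The coreceptors Eng (endoglin) and Tgfbr3 (betaglycan) fell 4.26-fold and 9.60-fold. Il10 itself was scarce in both groups, at 0, 0.0992 and 0.312 CPM with LPS and cytokines and 1.82, 2.02 and 2.48 CPM with LPS alone, and fell (log2 -3.89 ± 0.61, SE). That value was -3.30 without replicate 1 and -5.13 without replicate 3 of LPS with cytokines. Of 8 SOCS family genes, Cish and Socs2 fell 2.37-fold and 1.99-fold and the other 6 did not pass the test. That is 25% called, against 41.4% of all tested genes.

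Inhibitory and tolerogenic molecules, listed together, did not move together. 16 of 33 tested members of that list fell, 8 rose and the median was -0.26. Cd274, which encodes PD-L1, had 792, 685 and 607 CPM with LPS and cytokines, against 889, 1247 and 1042 CPM with LPS alone, and fell 1.54-fold (log2 -0.63 ± 0.14, SE, adjusted p = 0.0042). Pdcd1lg2, which encodes PD-L2, had 29.9, 26.7 and 21.8 CPM with LPS and cytokines, against 188, 203 and 183 CPM with LPS alone, and fell 7.39-fold. Havcr2, which encodes TIM-3, an inhibitory receptor whose tail binds Bat3 in T cells, had 31.2, 30.05 and 13.1 CPM with LPS and cytokines, against 4.09, 1.66 and 1.91 CPM with LPS alone. It rose 9.54-fold (log2 3.25 ± 0.44, SE, adjusted p = 6.55e-04), with replicate 3 the lowest of the cytokine libraries.

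Nt5e, which encodes CD73, the enzyme that makes adenosine, had 246, 279 and 266 CPM with LPS and cytokines, against 54.3, 24.1 and 60.8 CPM with LPS alone, and rose by 2.49 on the log2 scale. The other members that rose were Arg1, Arg2, Klrb1b, Cd200r1, Tsc22d3 (GILZ) and 4632428N05Rik. Gpnmb, a glycoprotein ligand of syndecan-4, fell 4.71-fold, Fgl2 and Ptgs2 fell (-3.81 and -2.33 on the log2 scale), and Aldh1a2 fell as given above. Ido1, the tryptophan-degrading enzyme, was not tested, with 0 counts over the libraries with LPS and cytokines and 11 counts over those with LPS alone. Over the 30 readout genes chosen for this comparison, 29 were tested, 23 fell, 5 rose (Arg1, Bcl3, Havcr2, Pmepa1 and Smad7) and Socs3 was not called.

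Genes of macrophage identity and uptake of dying cells rose more often than they fell. 20 of 32 tested members rose, 8 fell and the median was 0.61. C1qa, C1qb and C1qc, the chains of complement C1q, rose by 2.61, 1.21 and 2.04 on the log2 scale, and Csf1r, the receptor of M-CSF, by 1.42. Mertk and Trem2, receptors for dying cells and lipids, rose by 0.92 and 1.41. The scavenger receptors Cd36 and Marco fell. Cd36 had 77.9, 70.01 and 57.6 CPM with LPS and cytokines, against 680.1, 573 and 704 CPM with LPS alone, a 9.62-fold fall. Lyz1 and Lyz2, the lysozymes, fell (log2 -0.99 and -0.998), and as near-identical genes they may share reads.

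Dendritic lineage genes leaned the other way, with 12 of 21 tested members lower, 4 higher and a median of -0.67. Batf3, a transcription factor of cross-presenting dendritic cells, had 2.39, 2.28 and 2.39 CPM with LPS and cytokines, against 24.8, 25.9 and 27.9 CPM with LPS alone, an 11.2-fold fall. Mgl2, a lectin of the cDC2 subset, fell (-4.58 on the log2 scale). Cd24a, a surface glycoprotein of cDC1 and of granulocyte precursors, had 484, 491 and 451 CPM with LPS and cytokines, against 59.6, 49.7 and 71.9 CPM with LPS alone, and rose 7.78-fold. The macrophage list summed to 11802 to 13857 CPM with LPS and cytokines and 16343 to 20291 CPM with LPS alone, a sum that includes Lyz2 and Marco.

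Markers of other cells of GM-CSF cultures moved with the cytokines. Of 14 tested granulocyte and precursor markers, 10 rose and 1 fell, with a median of 1.32 and a summed level of 3964 to 4815 CPM with LPS and cytokines and 1134 to 2758 CPM with LPS alone. The granule genes Elane and Mpo averaged 15.9 ± 9.82 and 4.28 ± 3.25 CPM with LPS and cytokines and 2.45 ± 0.161 and 0.343 ± 0.106 CPM with LPS alone (SD, n = 3 each), and Ngp and Camp did not pass the test. S100a8 had 1489, 1790 and 1338 CPM with LPS and cytokines, against 365, 260.5 and 751 CPM with LPS alone, where replicate 3 was the highest. Of 8 tested mast cell and basophil markers 4 rose and 2 fell. Cpa3, a mast cell protease, had 3.87, 2.97 and 2.08 CPM with LPS and cytokines, against 0.569, 0.119 and 0.338 CPM with LPS alone, and Hdc, which makes histamine, fell 4.22-fold. The mast cell genes Fcer1a, Ms4a2 and Tpsb2 had too few counts to be tested, and the summed level of the list was 30.4 to 72.1 CPM with LPS and cytokines and 55.4 to 60.6 CPM with LPS alone. Lymphoid markers summed to 1.87 to 3.07 CPM with LPS and cytokines and 2.48 to 5.23 CPM with LPS alone, with only Lck high enough to be tested, and no erythroid marker was tested. The part of these cells in the results was not tested.

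Pattern recognition and lectin receptors moved in both directions. 10 of 25 tested Toll-like receptor genes and adaptors rose and 9 fell, with 76% called against 41.4% of all tested genes. Tlr2 had 626, 595 and 609.6 CPM with LPS and cytokines, against 268, 245 and 231 CPM with LPS alone, a 2.44-fold rise, and Tlr4 with its cofactors Cd14 and Ly96 rose by 0.65, 0.35 and 0.55 on the log2 scale. Tlr1, the partner of TLR2, fell 6.81-fold, and Cd180, a TLR4-related inhibitor, fell 5.90-fold. Among Fc receptors and C-type lectins, 9 of 19 rose and 7 fell. Fcgr4, an activating IgG receptor, had 149.9, 117 and 163 CPM with LPS and cytokines, against 18.7, 27.8 and 21.1 CPM with LPS alone, a 6.30-fold rise. Clec4a2 rose 2.31-fold and Clec4a3 fell 2.20-fold, although both belong to the DCIR family of lectins.

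Of 16 tested chemoattractant receptors, 8 rose and 3 fell, with Ccr7 among those that fell. P2ry12, a receptor of ADP, had 7.27, 8.53 and 9.87 CPM with LPS and cytokines, against 1.48, 1.07 and 1.46 CPM with LPS alone, a 6.26-fold rise, and Fpr1, which senses formyl peptides, rose 2.24-fold. Cxcr4 rose by 2.39 on the log2 scale. Of 17 tested integrin genes 6 rose and 2 fell, a share of 47.1% called against 41.4% of all tested genes. Itgb5 and Itga1 rose 3.44-fold and 3.17-fold, and Itga4 fell 3.09-fold. Pecam1, an adhesion molecule of endothelium, platelets and myeloid cells, had 182, 206 and 178 CPM with LPS and cytokines, against 20.8, 18.7 and 28.1 CPM with LPS alone, an 8.27-fold rise, while Acta2, listed with it among stromal markers, fell 3.52-fold.

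Secreted defence and acute-phase genes divided, with 11 of 24 members higher, 9 lower and a median of 0.60. Saa3, the serum amyloid A of macrophages, had 6178, 5243 and 5803 CPM with LPS and cytokines, against 657, 1018 and 681 CPM with LPS alone, and rose 7.23-fold (log2 2.85 ± 0.18, SE, adjusted p = 5.01e-07). Saa2 had 190 counts with LPS and cytokines and none with LPS alone, and was at least 54.0-fold higher against a floor of 3 counts over the group. Lcn2, Hp, Ltf, S100a8 and S100a9 also rose, and the last 3 of these are granulocyte markers as well. Nos2, inducible nitric oxide synthase, had 721, 661 and 598 CPM with LPS and cytokines, against 869, 1253 and 1093 CPM with LPS alone, and fell 1.64-fold (adjusted p = 0.0016). Ceruloplasmin (Cp), the pentraxin Ptx3 and Irg1, which makes itaconate, fell (-3.87, -4.31 and -1.58 on the log2 scale).

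Matrix genes and proteases held both directions, 10 of 23 higher and 6 lower. Beside Spp1, Col4a1 and Tgfbi, Mmp8 and Mmp19 rose by 1.28 and 1.35 on the log2 scale, while Mmp25, a membrane-bound metalloproteinase, had 3.13, 2.97 and 4.05 CPM with LPS and cytokines, against 51.6, 38.6 and 34.8 CPM with LPS alone, and fell 12.4-fold. Lysosomal genes rose modestly, 14 of 30 with 5 lower and a median of 0.31, with 63.3% called against 41.4% of all tested genes. Gaa and Asah1, which degrade glycogen and ceramide, rose 1.73-fold and 1.64-fold.

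Of 18 tested genes of prostaglandin and leukotriene synthesis and sensing, 10 rose and 3 fell, with a median of 0.62. Alox5ap, the activator of the first leukotriene enzyme, had 536, 518 and 505 CPM with LPS and cytokines, against 188, 199 and 218 CPM with LPS alone, a 2.55-fold rise. Ltc4s, leukotriene C4 synthase, rose 5.58-fold and Alox5 and Lta4h by 1.26 and 0.54 on the log2 scale. Of the cyclooxygenases Ptgs1 rose (1.32) and the inducible Ptgs2 fell (-2.33). Of the prostaglandin E2 receptors Ptger2 rose 5.10-fold, with 40.7, 43.7 and 46.5 CPM with LPS and cytokines, against 9.10, 7.01 and 9.23 CPM with LPS alone, and Ptger4 fell (-1.23).

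Cholesterol genes included called members in both efflux and synthesis. 11 of 28 members rose and 4 fell, a share of 53.6% called against 41.4% of all tested genes. Abca1, the cholesterol exporter, had 313, 298 and 281 CPM with LPS and cytokines, against 61.99, 45.3 and 48.97 CPM with LPS alone, and rose 5.64-fold (log2 2.50 ± 0.12, SE, adjusted p = 8.33e-08). Abcg1, Mylip and Nr1h3, which encodes the sterol sensor LXR alpha, rose by 0.67, 0.92 and 1.25 on the log2 scale. Sqle, an enzyme of cholesterol synthesis, rose by 0.65 on the log2 scale.

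Of the glycolysis and HIF target genes, 9 of 32 rose, 3 fell and 20 were not called, a share of 37.5% called against 41.4% of all tested genes. Pfkfb3, which makes the activator of phosphofructokinase, had 383, 304 and 322 CPM with LPS and cytokines, against 121, 135 and 117 CPM with LPS alone, a 2.68-fold rise. Aldoc rose 2.18-fold and Hk3 fell 1.95-fold. In the mitochondrial list 15 of 35 fell and 4 rose, with 54.3% called and a median of -0.25. Ogdh and Sdhb fell 1.63-fold and 1.62-fold, and Idh2 rose 1.56-fold. Cell cycle genes fell, 24 of 34 with 1 higher (E2f1) and a median of -0.72. Ccnd2, the D-type cyclin of haematopoietic cells, had 92.7, 84.5 and 117 CPM with LPS and cytokines, against 561, 408 and 458 CPM with LPS alone, and fell 4.90-fold (adjusted p = 7.90e-07). Ccne1 and Ccnd1 fell 3.36-fold and 4.06-fold.

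**Figure D3:**
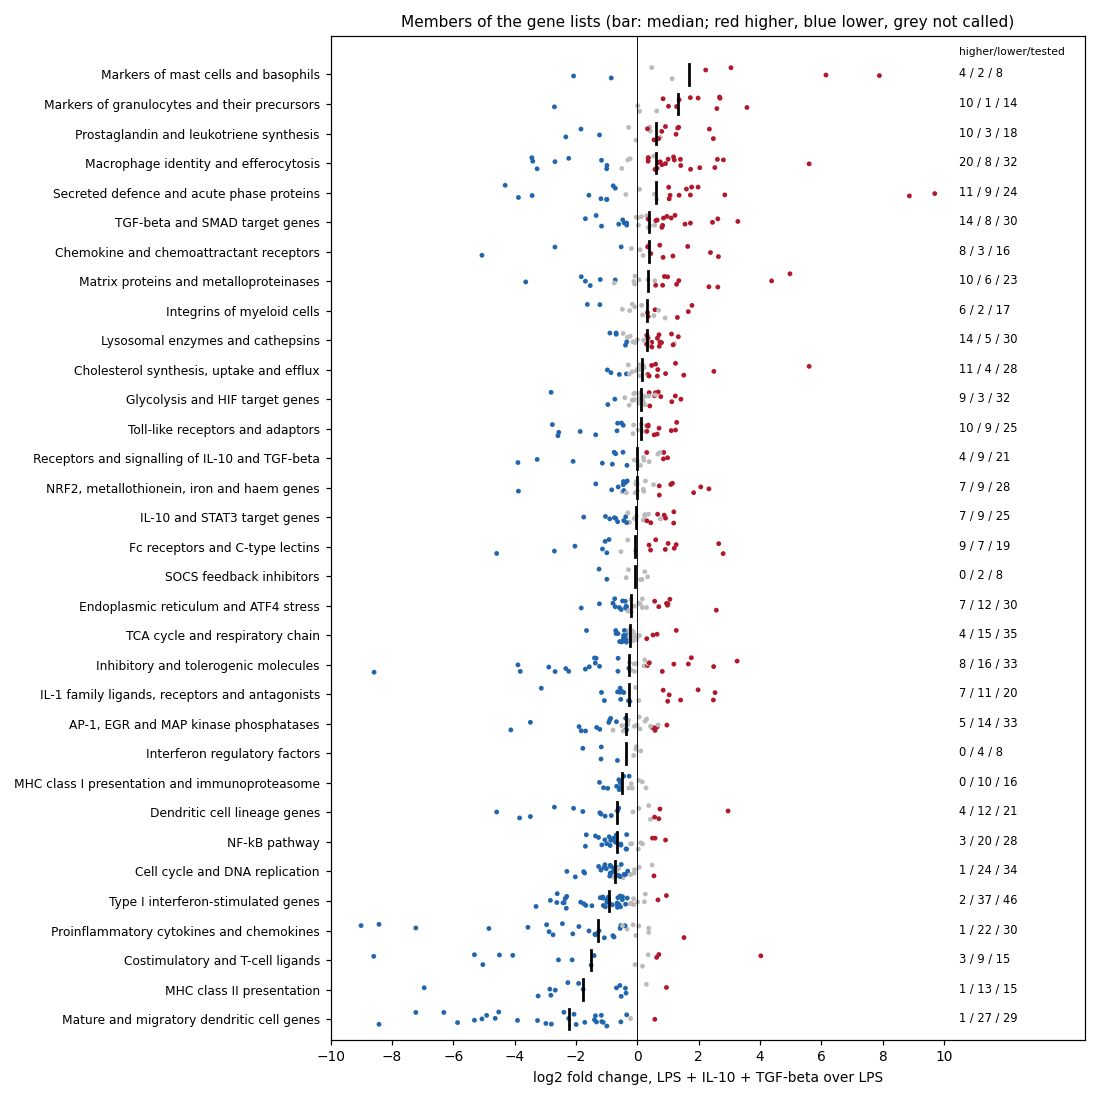
Log2 fold changes (LPS with IL-10 and TGF-beta over LPS alone, horizontal axis) of the tested members of the gene lists with at least 8 tested members, each a point, red where higher and blue where lower at an adjusted p under 0.05 and grey where not called, with a black bar at the list's median and the numbers higher, lower and tested at the right. Lists run from a median of 1.68 for mast cell and basophil markers to -2.24 for mature and migratory dendritic cell genes.

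Whether the cytokines act alike without LPS was asked in a fit of the 4 WT groups, which tests the difference made with LPS minus that made without LPS. Of 11718 genes tested, 2494 (21.3%) were called, 1156 with a more positive (9.87%) and 1338 with a more negative (11.4%) difference with LPS. The balance depends on the scaling. Upper-quartile scaling gave 1562 more positive and 1147 more negative calls, and limma on log2(TPM + 1) and log2(TPM + 0.1) gave 1431 and 1112, and 1327 and 1058. The median over all genes was 0.030 here, and 0.112, 0.103 and 0.118 under these alternatives.

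Most interferon-stimulated genes fell with the cytokines in the presence of LPS and rose with them in its absence. Of 46 tested members, 41 rose and none fell with the cytokines alone, 5 were not called, and 32 both fell with LPS and rose without it. Isg15 had 77.2, 55.1 and 55.8 CPM with the cytokines alone, against 2.10, 3.22 and 3.22 CPM in medium, and the difference between both effects was -6.18 ± 0.28 on the log2 scale (SE, adjusted p = 7.04e-09). Oasl1 had 196, 135 and 271 CPM with LPS and cytokines, against 991, 1026 and 912 CPM with LPS alone, and 113, 61.8 and 47.6 CPM with the cytokines alone, against 0.700, 0.0869 and 0.261 CPM in medium. Rsad2 had 232, 87.5 and 67.1 CPM with the cytokines alone, against 1.05, 1.999 and 0.784 CPM in medium. All 46 tested members of the list were called, each with a more negative difference with LPS, also without replicate 1 of the cytokines alone and without replicate 3 in medium, and the summed level was 6911 to 8481 CPM with the cytokines alone and 1877 to 1993 CPM in medium. Replicate 1 was the highest library given the cytokines alone in Isg15, Oasl1 and Rsad2. The libraries given the cytokines alone thus lay between those in medium and those with LPS and cytokines in Isg15 throughout, and in Rsad2 except that its replicate 1 exceeded replicate 2 of LPS with cytokines.

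The inflammatory genes Il1b, Il6 and Nos2 showed the same crossing. Il1b had 2015, 2305 and 1669 CPM with the cytokines alone, against 465, 427 and 268 CPM in medium, a rise of 2.37 on the log2 scale (adjusted p = 4.46e-07), so that the difference between the effects was -2.91 ± 0.26 (SE, adjusted p = 3.78e-06). Il6 had 28.7, 25.3 and 18.96 CPM with the cytokines alone, against 8.05, 8.17 and 6.18 CPM in medium, and Nos2 had 238, 226 and 137 CPM with the cytokines alone, against 33.4, 33.1 and 21.9 CPM in medium. Both rose with the cytokines alone and fell when they were added to LPS. Il1rn rose with the cytokines alone by 1.90 on the log2 scale, and Socs3 by 1.98, with 396, 415 and 361 CPM with the cytokines alone, against 111, 109.8 and 76.6 CPM in medium. With LPS the fall of Il1rn was lost in 5 of 6 fits that leave out 1 library, and Socs3 did not fall. 23 of 30 tested inflammatory cytokines and chemokines were called with a more negative difference with LPS and none with a more positive one. Of the 29 tested readout genes 19 were called. Without replicate 1 of the cytokines alone the differences of Isg15, Il1b, Il6 and Nos2 were -6.01, -2.91, -3.66 and -3.33, and without replicate 3 in medium -6.30, -2.72, -3.68 and -3.31.

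For Il12b, Cd40 and Ccl17 the size of the difference rested on replicate 1 of the cytokines alone. Il12b had 23.4, 0.172 and 0.167 CPM with the cytokines alone, and without replicate 1 of that group the difference between the effects was -7.28, against -12.65 with it. Cd40 had 15.4, 1.20 and 1.75 CPM with the cytokines alone, against 5.77, 5.13 and 1.05 CPM in medium, and the difference was -5.03 with and -3.06 without that library. Ccl17 had 187, 23.97 and 39.2 CPM with the cytokines alone, against 1549, 1316 and 716 CPM in medium, with a difference of -3.36 with and -1.97 without it. Each of these 3 genes was called both with and without that library, but Ccl17, at an adjusted p of 0.0486, was not called without any single library of LPS with cytokines, of LPS alone or of medium (adjusted p of 0.0708 to 0.107). Cd86 (-2.73, adjusted p = 0.0282) was not called without 7 of the 12 libraries taken out singly, and Cd274 (-0.94, adjusted p = 0.0391) without 7. Ccl22 and Ccr7 were not called (-5.86 and -2.80, adjusted p = 0.076 and 0.302), and their values were -1.82 and -0.032 without replicate 1 of the cytokines alone and -5.44 and -2.28 without replicate 3 in medium. Ccl22 was called without replicate 2 or replicate 3 of the cytokines alone (adjusted p = 0.0459 and 0.045). Ccl22 had 300.7, 5.93 and 6.68 CPM with the cytokines alone, against 852, 771 and 193 CPM in medium, and Ccr7 had 87.8, 7.30 and 2.09 CPM with the cytokines alone, against 218, 219 and 17.8 CPM in medium.

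The class II gene H2-Ab1 fell with the cytokines without LPS as well. It had 612, 515 and 466 CPM with the cytokines alone, against 2342, 2109 and 919 CPM in medium, where replicate 3 was the lowest. The difference between the effects was 0.0053 ± 0.40 (SE, adjusted p = 0.995), which does not show that the effects were equal, and was 0.12 without replicate 1 of the cytokines alone and 0.30 without replicate 3 in medium. 3 of 15 class II genes were called in this test, all with a more negative difference with LPS. That share is near the 21.3% called over all tested genes. Itgax fell with the cytokines without LPS as well (404, 422 and 342 CPM with the cytokines alone, against 1045, 949.7 and 705 CPM in medium), with a difference of 0.0047 ± 0.17 (SE). Arg1 (difference 0.47), Smad7 (-0.23), Bcl3 (-0.29), Ciita (-0.79), Il10ra (-0.44) and Havcr2 (1.45) were not called. With the replicate number as a block, the differences of Havcr2 (1.46, adjusted p = 0.0039) and Il10ra (-0.45, adjusted p = 0.028) were called and that of Ccl17 (-3.23, adjusted p = 0.053) was not.

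Other genes had a more positive difference in the presence of LPS. Lifr, the receptor of leukaemia inhibitory factor, had 15.01, 19.8 and 12.6 CPM with LPS and cytokines, against 2.05, 2.97 and 1.24 CPM with LPS alone, and 12.3, 12.9 and 12.1 CPM with the cytokines alone, against 17.9, 17.6 and 17.1 CPM in medium. The difference between its effects was 3.42 ± 0.30 (SE, adjusted p = 1.19e-06), and 3.41 and 3.42 without replicate 1 of the cytokines alone and without replicate 3 in medium. Angptl4 had 47.3, 39.6 and 45.1 CPM with the cytokines alone, against 6.999, 8.34 and 10.8 CPM in medium, and the libraries with LPS alone were the lowest of the 12. Smtnl2 rose to 7.44 CPM with LPS and cytokines, against 3.39 CPM with LPS alone, and fell to 1.49 CPM with the cytokines alone, against 7.03 CPM in medium. Etv1 had 12.99, 12.03 and 7.35 CPM with the cytokines alone, against 1.66, 0.869 and 1.22 CPM in medium, and its difference was 2.90, or 4.69 without replicate 1 of LPS alone.

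**Figure D4:**
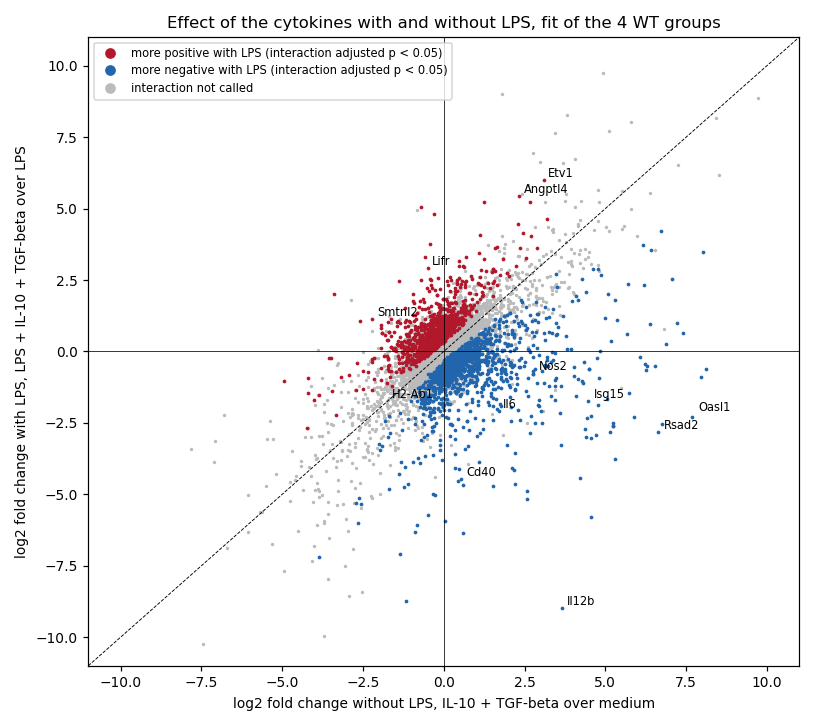
Log2 fold change made by IL-10 and TGF-beta with LPS (LPS with cytokines over LPS, vertical axis) against that made without LPS (cytokines over medium, horizontal axis) for the 11718 genes of the fit of the 4 WT groups, red where the effect was more positive and blue where more negative with LPS at an interaction adjusted p under 0.05, with a dashed line of equal effects. Isg15, Rsad2 and Oasl1 lie to the right of 0 and below it, and H2-Ab1 lies near the dashed line below 0.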

How the data were processed

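RNA of sorted CD11c-high BMDC was sequenced from 1 ug of total RNA with an Illumina TruSeq kit, per the labels' protocols. The authors deposited expected counts and TPM per gene from RSEM on mm10, per the submitters' processing notes and the file headers. No source used here gives versions, strand setting or annotation. Reads of antisense or overlapping genes and of near-identical copies can therefore not be separated with certainty. The design text names other aligners and an isoform analysis that these files do not hold.

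Expected counts were rounded to whole numbers and tested with edgeR 4.0.16 (robust quasi-likelihood, TMM scaling, filterByExpr, Benjamini-Hochberg adjusted p under 0.05) in R 4.3.3, on the 6 libraries with LPS for the main comparison and on the 12 WT libraries for the difference between effects. CPM were scaled by TMM over the 12 WT libraries. Lists were described by counts and medians. The members and lists were chosen with earlier results of these data known. Genes named are the 10 largest rises and falls among called genes with a name whose log2(CPM + 1) averaged 2 or more and whose groups did not overlap, the 3 called members of each of 37 lists with the smallest p, 30 readout genes, the 4 largest differences between effects in each direction, and Rn45s. Further list members are given for context, and were named after their values were seen. Results of some genes are not reported here.

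Depth was 8940446 to 12068759 expected counts in the 6 libraries. On simulated counts for 11038 genes, 52% of the 50 genes given a 1.5-fold change were called, 84% of the 50 given 2-fold and 100% of the 100 given 4-fold. Of 187 calls 19 fell on unchanged genes, a share above the adjusted p limit of 0.05. The simulation changed far fewer genes than the 41.4% called in the data, so these shares may not carry over. The main fit did not pair libraries by replicate number. Same-numbered deviations of LPS with cytokines and LPS alone correlated at -0.027, -0.053 and -0.112 over 9271 genes, which does not exclude a shared origin. Alternatives were other scalings, DESeq2 1.42.0, filters, more groups in the fit, the replicate block, limma 3.58.1 on log2 TPM with pseudocounts of 1 and 0.1, a limit of 2-fold, leaving out each library and, added after seeing the data, leaving out Rn45s. Promoters and motifs were read from RefSeq tables on GRCm38.p6.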

Additional observations from a re-analysis of the deposited data

Results flagged for a closer look

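Of the 29 readout genes tested for a difference between what the cytokines did with LPS and what they did without it, 19 were called. The test was edgeR's quasi-likelihood test of that difference on the 12 WT libraries, which called 21.3% of all tested genes. The readout genes were chosen for this comparison and not drawn at random. Their share of calls is therefore no test against that of all genes. Adding the genes named for the largest called differences, whose calls were fixed by that choice, gave 26 calls among 36 genes. Values below are log2 differences, effect with LPS (LPS with cytokines over LPS) minus effect without LPS (cytokines over medium). In interferon-stimulated genes they were -9.96 for Oasl1, -9.45 for Rsad2, -6.65 for Cxcl10 and -6.18 for Isg15. Ms4a4c, a membrane protein gene, had -9.30. Ms4a4c had 35.9, 26.97 and 61.9 CPM with LPS and cytokines, against 216, 313 and 199 CPM with LPS alone, and 21.3, 7.56 and 4.01 CPM with the cytokines alone, against 0.262, 0 and 0 CPM in medium. The value of Rsad2 was -8.72 without replicate 1 of the cytokines alone, that of Oasl1 -10.9 without replicate 1 in medium, and that of Ms4a4c -8.41 and -12.4 without each of these libraries.

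Among cytokine genes the differences were -12.7 for Il12b, -5.75 for Il12a, -4.99 for Il10, -3.79 for Il6, -3.52 for Il23a, -3.36 for Ccl17, -2.91 for Il1b, -2.32 for Il1rn and -2.07 for Tnf. Il12b, Il12a, Il10 and Il23a had few counts in some groups, so their fitted values depend on the prior count and on single libraries. Il12b was -7.28, -13.3 and -13.3 without replicate 1, 2 and 3 of the cytokines alone and -13.5 without replicate 1 of LPS with cytokines. Il12a was -4.91 without replicate 1 of the cytokines alone and -6.68 without replicate 1 in medium. Il10 was -4.40 and -6.25 without replicates 1 and 3 of LPS with cytokines and -5.65 without replicate 2 in medium, and Il23a was -4.37 without replicate 1 in medium. Ccl17 was -1.97 without replicate 1 of the cytokines alone.

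Among surface molecules and enzymes the differences were -5.03 for Cd40 (-3.06 without replicate 1 of the cytokines alone), -2.73 for Cd86, -1.74 for Cd80, -0.94 for Cd274 and -3.47 for Nos2. In genes of STAT3 and SMAD feedback they were -1.72 for Socs3, -0.98 for Skil and -0.98 for Pmepa1, which was not called without 7 of the 12 libraries taken out singly (adjusted p up to 0.098). Skil had 148, 135 and 118 CPM with the cytokines alone, against 91.7, 87.5 and 75.8 CPM in medium, and Pmepa1 had 19.4, 19.6 and 20.5 CPM with the cytokines alone, against 3.85, 3.82 and 2.44 CPM in medium. The positive differences were 3.42 for Lifr, 3.34 for Smtnl2 (3.93 without replicate 2 of the cytokines alone), 3.11 for Angptl4 and 2.90 for Etv1 (4.69 without replicate 1 of LPS alone).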

How the results depend on the processing

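With a 2-fold limit, 708 genes were higher and 859 lower with LPS and cytokines than with LPS alone. The other alternatives kept both counts within 1.5 times of 2199 and 2416. DESeq2 gave 2062 and 2204, the fit of all 6 groups 2273 and 2510, limma on log2(TPM + 1) 1834 and 2406, and leaving out 1 library 1740 to 2262 higher and 1942 to 2474 lower. Whether same-numbered libraries of the 2 groups share an origin is not given in the sources used here. The fit with the replicate block gave 2028 and 2221. In that block Il1rn (adjusted p = 0.067) and Cxcl10 (adjusted p = 0.071) were not called. Same-numbered libraries of the cytokines alone and medium correlated at 0.34, 0.18 and 0.41. No named gene changed direction with LPS under any alternative run. Kdr, Bcl3, Skil, Il23a, Il1rn and Smtnl2 lost their calls without single libraries, and the cause was not tested. Leaving out 1 library gave 873 to 1153 more positive and 1091 to 1406 more negative differences between effects. Some uncalled differences near 0 changed sign. H2-Ab1 was 0.0053, and -0.014 with RLE scaling, -0.014 with DESeq2, -0.015 with all 6 groups, -0.064 with the replicate block, -0.018 with log2(TPM + 1), -0.018 with log2(TPM + 0.1) and -0.25 to 0.30 without 1 library. Itgax was 0.0047, and -0.014, -0.014, -0.019 and -0.0051 under the first 4 of these and -0.14 to 0.14 without 1 library. Bcl3 was -0.52 to 0.096 without 1 library, and Smad7 was 0.039 with log2(TPM + 1). The 3 libraries a group limit every estimate.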

Other observations

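3 further gene lists held members in both directions when the cytokines were added to LPS. Of 33 tested AP-1, EGR and MAP kinase phosphatase genes 14 fell and 5 rose, with a median log2 fold change of -0.38. That is 57.6% called, against 41.4% of all tested genes. Atf3, a stress-induced repressor, had 269, 237 and 238 CPM with LPS and cytokines, against 946, 807 and 859 CPM with LPS alone, a 3.55-fold fall, and Egr2 fell 3.22-fold. Jun and Klf10 rose by 0.65 and 0.96 on the log2 scale, and Fos and Junb fell (-0.39 and -0.35).

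Of 30 tested genes of endoplasmic reticulum and ATF4 stress 12 fell and 7 rose, with 63.3% called against 41.4% of all tested genes. The chaperones and folding factors Hspa5, Hsp90b1, Pdia6, Sdf2l1, Manf and Creld2 fell, with Creld2 at -1.23 on the log2 scale, and the co-chaperone Dnajb9 rose 2.09-fold (adjusted p = 4.96e-05), while Atf4, Asns, Phgdh and Trib3, known ATF4 pathway genes, rose by 0.57, 0.70, 0.998 and 0.95. Of 28 tested metallothionein, NRF2, iron and haem genes 7 rose and 9 fell, a share of 57.1% called against 41.4% of all tested genes. Mt2, a metallothionein, had 495, 599.6 and 436 CPM with LPS and cytokines, against 92.1, 106 and 102 CPM with LPS alone, a 5.05-fold rise, and Mt1 rose 4.20-fold. The zinc importer Slc39a14 rose by 1.15 and the peroxiredoxins Prdx1 and Prdx6 fell (-0.62 and -0.45 on the log2 scale).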
